A study of Homo sapiens with 5 samples.

Results

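The MYC-MAX-MXD-MLX network was examined through the mRNA level of its genes in HLF cells, an established line of human hepatocellular carcinoma cells. Its members were taken by gene symbol. Of the 10 network genes listed in any of the 3 tables of the series, 9 were listed in all 3, among 10976 genes listed in all of them. These genes, with their NCBI gene IDs, are MYC (4609), MAX (4149), MXD3 (83463), MXD4 (10608), MXI1 (4601), MNT (4335), MLX (6945), MLXIP (22877) and MGA (23269). MXD1 (4084) was listed only in the tables of the reconstituted cells, and its level is given apart.

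The study sequenced RNA from 5 conditions, with 1 sample listed for each. USP28-Ctrl cells carried a control guide RNA (sgCtrl), and USP28-KO cells a guide RNA against USP28 (sgUsp28), a deubiquitinase that removes ubiquitin from MYC. For the remaining conditions, cells with sgUsp28 received the lentiviral vector pRRL-Ctrl, pRRL-Usp28-WT or pRRL-Usp28-Mono, here called vector, USP28-WT and USP28-M, where USP28-M is a mutant that does not dimerize. All reconstituted cells, the vector control included, thus descend from knockout cells, and knockout cells were grown from single clones. No condition was treated further.

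Genes of this network encode transcription factors with a basic helix-loop-helix and leucine zipper. MAX is the shared partner: with MYC it forms an activating dimer on E-box DNA, and with MXD proteins, MNT or MGA it forms dimers that repress the same kind of site. MLX is the parallel partner of MLXIP (MondoA), which responds to glucose-derived metabolites, and it also pairs with some MXD proteins and MNT. MYC is a short-lived protein, so that its mRNA level and its protein level need not move together.

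The E-box that these dimers prefer reads CACGTG, and it was searched in RefSeq promoters of GRCh38.p14, each covering 250 bases before and 50 bases after a transcription start. Sequences were used for 14 promoters of 9 network genes, MXD1 among them and MYC not. The motif was found in 3 of these 14 promoters (21.4%), those of MXD4, MNT and MLX, against 2548 of 35116 promoters overall (7.26%). Because CACGTG reads the same on both strands, 1 search covered both. Several promoters belong to the same gene, so the 14 promoters are not independent. The 30 bases around each motif are shown on the strand of the gene, with the E-box in capitals, because these are the members whose own promoters carry the site that the network binds.
MXD4, chr4:2262330-2262359, minus strand: gggccgggccacCACGTGctgttgctaagc
MNT, chr17:2401236-2401265, minus strand: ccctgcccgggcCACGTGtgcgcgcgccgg
MLX, chr17:42567038-42567067, plus strand: gcgggcgcgggtCACGTGggcacgccaccc
All 3 sites lie before the transcription start, with 232 bases between the motif and the start for MXD4, 187 for MNT and 44 for MLX. A match is a description of the sequence, and binding there was not measured in these data.

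Each table gives a gene 1 average level, in log2 CPM (reads of the gene scaled to the reads of the library, on a log2 scale), which the authors took over all libraries of a fit. The libraries of a fit are not listed, so the sets are taken from the comparison that each table names. The USP28-KO table is taken to average USP28-Ctrl with USP28-KO. The tables for USP28-WT and for USP28-M give the same average for all 12342 genes they list. That average is taken to be over vector, USP28-WT and USP28-M together, and these tables are called the reconstitution tables. A level is therefore the authors' mean of a set of conditions and carries no SD, and conditions within a set cannot be told apart here. The spacing of the lowest CPM values gave an approximate total of 7700000 reads behind the USP28-KO table and 30500000 behind the reconstitution tables. With this spacing and a fitted offset, 97.1% and 71.8% of the 1000 lowest values fell on a whole number of steps, with a tolerance of 0.1. Reads given below are the CPM divided by the spacing, without the offset, and are approximate. Error ranges below are 95% exact Poisson intervals of the reads implied by these depths, and they cover counting error only. As a check of the labels, USP28 itself had a level of 5.15 log2 CPM in the USP28-KO table and 9.79 log2 CPM in the reconstitution tables, whose libraries include both USP28 vectors. Of 8 hepatocyte markers 1 (FGB) was listed in the USP28-KO table and 2 (FGB and SERPINA1) in the reconstitution tables. All 4 mesenchymal markers and 2 of 4 epithelial markers were listed. Most hepatocyte markers were thus not listed for these liver cancer cells, and the filter that decided which genes were listed is not given.

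MYC, the activator of the network, had a level well above the median gene in both sets. It was 6.63 log2 CPM in the USP28-KO table (95% counting interval 6.53 to 6.74, about 765 reads), above 78.7% of the genes listed there. Percentiles of this kind are not scaled for the length of a transcript. In the reconstitution tables it was 7.15 log2 CPM (7.10 to 7.19, about 4322 reads), above 88.0% of genes. The counting intervals of the sets did not overlap. Of the close relatives MYCN, MYCL and MLXIPL, 0 of 3 were listed in any table, so no level is given for them.

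MAX, the partner on which MYC depends for DNA binding, had a level below the median gene in both sets. It stood at 4.54 log2 CPM in the USP28-KO table (4.32 to 4.75), above 31.4% of genes, and at 4.58 log2 CPM in the reconstitution tables (4.47 to 4.68), above 43.5% of genes. The intervals of MAX overlapped between the sets.

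Among the repressors that pair with MAX, MXD4 and MNT had higher levels in the reconstitution tables than in the USP28-KO table, MXD3 a lower one, and MXI1 overlapping ones. MXD4, an MXD protein found in many differentiated cells, had 4.68 log2 CPM in the USP28-KO table (4.48 to 4.89) and 5.04 in the reconstitution tables (4.95 to 5.13). MNT, the broadly expressed antagonist of MYC, had 4.44 log2 CPM (4.21 to 4.66) and 5.22 (5.14 to 5.31). For neither gene did the intervals of the sets overlap. MXD3, a family member linked to dividing cells, had 4.13 log2 CPM in the USP28-KO table (3.88 to 4.38) and 3.63 in the reconstitution tables (3.48 to 3.78), and was the only member whose interval was lower in the reconstitution tables without overlap. MXI1 (also known as MXD2) rested on few reads, about 54 in the USP28-KO table and 196 in the reconstitution tables, at 2.81 log2 CPM (2.40 to 3.20) and 2.69 (2.48 to 2.89). Only 4.09% and 16.2% of genes, respectively, had a lower level than MXI1. MXD1 stood at 1.41 log2 CPM in the reconstitution tables (1.08 to 1.72, about 81 reads), above 4.09% of genes there. That level lies under the lowest listed value of the USP28-KO table, 1.70 log2 CPM, where MXD1 was not analysed.

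MLX and its partner MLXIP, the glucose-responsive arm, had levels above the median gene in both sets. MLX had 6.41 log2 CPM in the USP28-KO table (6.30 to 6.52), above 74.5% of genes, and 6.49 in the reconstitution tables (6.44 to 6.55), above 80.1% of genes. MLXIP had 5.74 log2 CPM (5.60 to 5.88), above 59.998% of genes, and 6.11 (6.05 to 6.17), above 73.4% of genes. The intervals of MLX overlapped between the sets and those of MLXIP did not. MGA, a large MAX partner that also belongs to a noncanonical Polycomb complex, had 5.61 log2 CPM (5.47 to 5.76) and 5.73 (5.66 to 5.80), with overlapping intervals. In all, 4 of the 9 members stood above the median gene of the USP28-KO table, which was at 5.33 log2 CPM, and 6 of 9 above that of the reconstitution tables, at 4.90 log2 CPM. These medians come from different gene lists, so the counts are not on the same scale. MXD4 and MNT, above the median only in the reconstitution tables, stood there at 5.04 and 5.22 log2 CPM, below 5.33.

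To compare genes with each other, levels were divided by the length of the longest protein-coding transcript of each gene in GENCODE release 29. On this scale, in CPM per kilobase, MYC (42.0 in the USP28-KO table and 59.95 in the reconstitution tables) and MLX (32.9 and 34.9) stood apart from the rest. Their counting intervals overlapped neither with each other nor with the next gene in either set. Below them in the USP28-KO table came MXD3 (7.73), MAX (7.37), MXD4 (6.34) and MLXIP (6.33), neighbours whose intervals overlapped, followed by MNT (4.35) and MGA (3.39), which also overlapped. In the reconstitution tables the middle group was made of MLXIP (8.19), MXD4 (8.12), MAX (7.57) and MNT (7.48), again with overlapping neighbours, and MXD3 followed at 5.47 and MGA at 3.67. MXI1 was last of the 9 in both sets, at 2.03 and 1.86 CPM per kilobase, and MXD1, in the reconstitution tables alone, stood below it at 0.477.

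The mRNA of MYC exceeded that of its partner MAX 5.70-fold per kilobase in the USP28-KO table and 7.92-fold in the reconstitution tables. Against the sum of MXD3, MXD4, MXI1 and MNT, repressors of the MXD family and MNT that were listed in all tables, MYC stood at 2.05-fold and 2.61-fold. Within that sum, MNT made up 21.3% in the USP28-KO table and 32.6% in the reconstitution tables. MLX exceeded MLXIP 5.19-fold and 4.26-fold. These ratios depended on the length taken for each gene. Per kilobase of coding length, MYC over MAX was 1.51 and 2.09, and MYC over the repressors 0.954 and 1.13, so that MYC no longer exceeded their sum in the USP28-KO table. By coding length MLX ranked above MYC there, at 6.57 against 6.19 log2 CPM per kilobase. With the median transcript length MLX over MLXIP was 1.10 and 0.906, so that the order of MLX and MLXIP turned in the reconstitution tables. The last place also moved, from MXI1 to MGA in both sets by coding length and to MXD4 in the USP28-KO table by median transcript length.

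**Figure D1:**
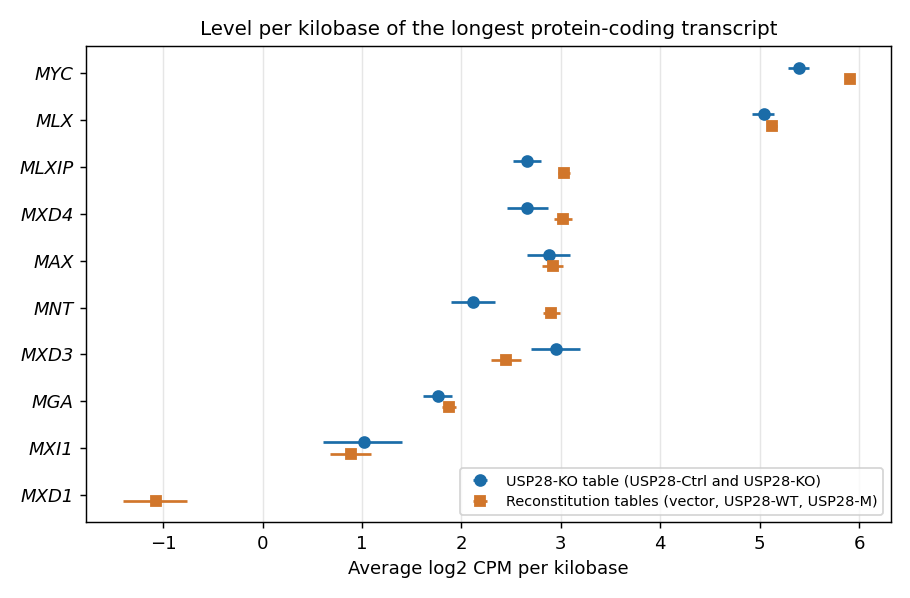
Average log2 CPM per kilobase of the longest protein-coding transcript (x axis) for each network gene, in the USP28-KO table (blue circles) and the reconstitution tables (orange squares), with 95% counting intervals. MYC and MLX lie above the other members in both sets, and the overlapping group next below them holds MXD3, MAX, MXD4 and MLXIP in the USP28-KO table and MLXIP, MXD4, MAX and MNT in the reconstitution tables.

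The sets of libraries were then compared gene by gene. The difference, reconstitution tables minus USP28-KO table, came to -0.12 on the log2 scale at the median of the 10976 shared genes, and this median was subtracted from each gene to give the centred difference. The sets differ in fit, normalization and depth, and any batch, the vectors and the share of knockout cells go with the set, so that these cannot be told apart, and averages without libraries allow no test. The 95% counting interval of a difference is a normal approximation from the reads in both sets. In bulk RNA, fewer cells of a type and less RNA per cell cannot be told apart either. None of the 9 members had an absolute centred difference of at least 1, against 990 of all shared genes (9.02%). MNT and MYC were higher by at least 0.5 in the reconstitution tables (2 of 9 members), against 14.0% of all shared genes. Of the members 0 were lower by at least 0.5, against 19.6% of all shared genes. Of the 9 members 7 had a centred difference above 0, against 50.0% of all shared genes, a share that the centring fixes, and the members' count was 6 against genes of like GC content and 8 against genes of like level.

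MNT had the largest centred difference of the network, 0.91 on the log2 scale (1.87-fold, 95% counting interval 0.67 to 1.14), above 96.7% of shared genes. MYC followed with 0.64 (1.55-fold, 0.52 to 0.75), above 91.0% of shared genes. MNT stayed first against genes of like GC content or like level, but another member came between MNT and MYC in each, MGA (0.43 against 0.39) by GC content and MXD4 (0.51 against 0.50) by level. MLXIP had 0.49 (0.34 to 0.65) and MXD4 0.48 (0.26 to 0.70). MGA had 0.24 (0.074 to 0.40) and MLX 0.21 (0.083 to 0.33), with intervals above 0 after centring, although their levels overlapped between the sets before it. The centred difference of MAX was 0.16 (-0.074 to 0.40) and that of MXI1 -0.0043 (-0.44 to 0.43), both with an interval that includes 0. MXD3 had the only negative difference past counting error, -0.38 (-0.66 to -0.094).

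The median centred difference of the 9 members was 0.24, where that of all shared genes is 0 by the centring. Centred differences followed the GC content of the transcript across shared genes (Spearman's rho 0.488, a description over 10351 genes that share their libraries). Network transcripts were richer in GC, with a median of 53.9% against 47.8% for shared genes. Set against genes of like GC content, the median of the members was 0.30. On that scale MNT stood at 0.72, MYC at 0.39 and MXD3 at -0.57, while MAX and MLX changed sign, to -0.079 and -0.035. The part of GC content in the differences was not tested further.

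**Figure D2:**
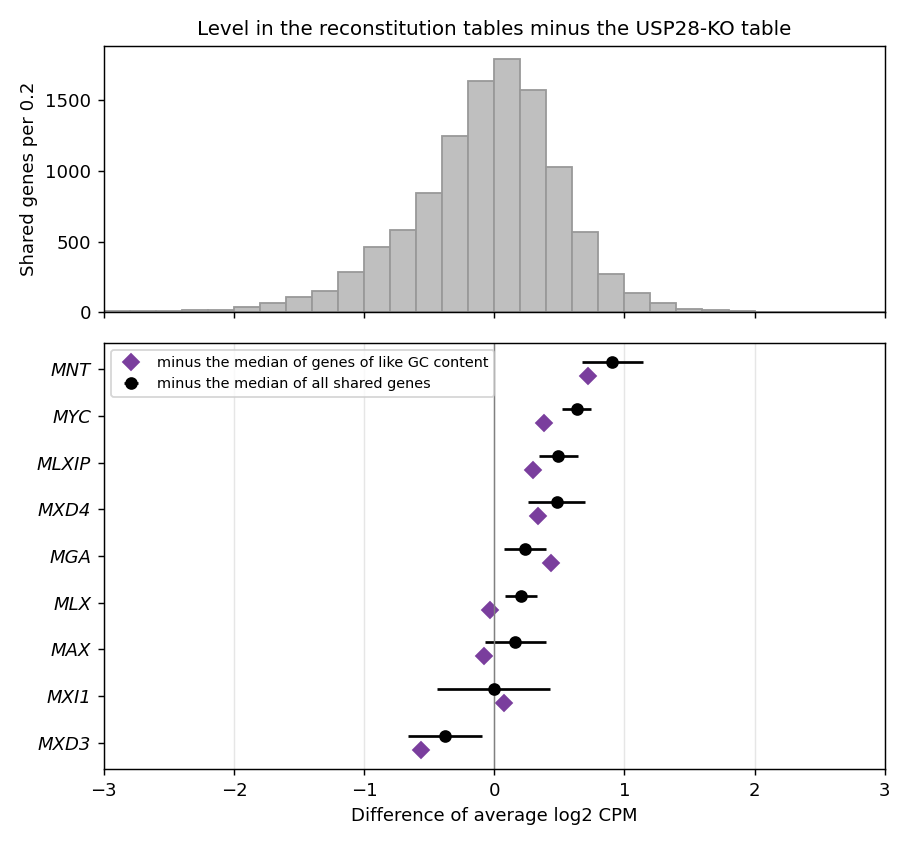
Upper panel, number of shared genes (y axis) per 0.2 of centred difference in average log2 CPM, reconstitution tables minus USP28-KO table (x axis). Lower panel, the 9 members on the same axis, centred on all shared genes (black circles, bars for the 95% counting interval) or on genes of like GC content (purple diamonds), with MNT highest at 0.91 and MXD3 lowest at -0.38.

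Proteins that work with the network were listed by their role, and the genes named are the 2 with the highest and the 2 with the lowest log2 CPM of each list when both sets are averaged, not scaled for length, so that within 1 set another gene may rank before them. All 20 genes of a list of MYC cofactors, coactivators and elongation factors among them, had a level in both sets. Their median was 6.36 log2 CPM in the USP28-KO table and 6.24 in the reconstitution tables. Among them 0 differed by 1 or more after centring, against 9.02% of all shared genes. KAT2A (-0.99), named here after its values were seen, and LEO1 (-0.98) came close. Against genes of like GC content they stood at -1.19, past the threshold, and -0.78. The highest averages were those of RUVBL2, a helicase of the TIP60 complex, with 8.01 and 8.25, and HCFC1 with 7.86 and 7.98, and the lowest those of LEO1, a PAF1c subunit, with 5.22 and 4.12, and CCNT1, cyclin T1 of pTEFb, with 3.88 and 4.12. Of 12 genes of the SIN3-HDAC corepressor, which MXD proteins bring to DNA, all were listed (median 6.23 and 6.400 log2 CPM). The deacetylase genes HDAC1 (7.55 and 7.54) and HDAC2 (7.88 and 7.28) had the highest averages over both sets, and SAP30 (5.15 and 4.76) and ING2 (4.66 and 3.67) the lowest. ARID4B was lower by 1.02 after centring, from 5.60 to 4.46 log2 CPM. Set against genes of like GC content its difference was -0.53, short of the threshold of 1. ING2 moved the other way, from -0.87 after centring to -1.05 on that scale. The 10 genes of the Polycomb complex around MGA had medians of 5.31 and 5.14 log2 CPM, with CBX3 (8.22 and 7.18) and TFDP1 (7.32 and 6.94) highest by the average of both sets and PCGF6 (4.90 and 3.96) and YAF2 (3.86 and 3.75) lowest. The median centred difference was 0.28 for the MYC cofactors, 0.10 for the corepressor and -0.12 for the MGA complex. Set against genes of like GC content, these medians were 0.069, 0.072 and -0.11.

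Genes of a list on the ubiquitination and turnover of MYC protein all had a level (21 of 21), with medians of 5.77 and 6.0 log2 CPM. The list includes USP25, a deubiquitinase related to USP28, although the study found MYC levels unaffected by its knockout. FBXW7, the substrate receptor of the ubiquitin ligase that USP28 opposes, had one of the lowest averages over both sets, with 4.32 and 4.06 log2 CPM, as had SKP2 with 4.56 and 3.85. The ubiquitin ligases HUWE1 (8.76 and 9.38) and TRIP12 (8.13 and 8.33) had the highest averages. USP28, with a centred difference of 4.76, was the only gene of this list that differed by 1 or more. Of 20 textbook MYC targets 19 were listed, with medians of 7.72 and 7.69 log2 CPM. ENO1, a glycolytic enzyme, with 11.6 and 11.9 log2 CPM, and PTMA, with 10.8 and 11.1, had the highest averages over both sets. CDKN1A, a cell cycle inhibitor that MYC represses, was higher by 1.38 after centring, from 4.13 to 5.39 log2 CPM. TERT, the catalytic subunit of telomerase, was lower by 1.15 after centring, from 4.09 to 2.82 log2 CPM. CDKN1A and TERT were the only genes among the 19 listed targets that differed by 1 or more, against 9.02% of all shared genes. Of 6 targets of MondoA and MLX, 5 were listed and 0 differed by 1 or more. The hexokinase gene HK2 (6.43 and 6.83) and KLF10 (5.95 and 5.70) had the highest averages of these targets, and HBP1 (3.69 and 4.05) and ARRDC2 (2.64 and 2.96) the lowest. The median centred difference was 0.32 for turnover, -0.037 for MYC targets and 0.44 for MondoA targets, of which 3 of 5 were above 0. Set against genes of like GC content, these medians were 0.19, -0.14 and 0.25, and with a minimum mean of 3 log2 CPM that of the MondoA targets was 0.17. TXNIP, a widely used readout of MondoA and named here after its values were seen, stood at 4.93 and 4.22 log2 CPM, a centred difference of -0.59.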

How the data were processed

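Total RNA of HLF cells was sequenced after library preparation with a NEBNext kit, named as Ultra II in the labels and as Ultra in the study's methods. The processing notes of the submitters list bcl2fastq 2.20, STAR 2.5.4, the build hg19 and edgeR 3.26.8 as used by the authors. The counting method, the filter on low genes and the number of libraries per condition are not given in the sources used here. The values used are the deposited averages of each gene in log2 CPM, which the authors' edgeR run returned. The tables also hold log2 fold changes, p-values, adjusted p-values and, for USP28-WT and USP28-M, an F statistic. These are comparisons of the authors and were not used. In the USP28-KO table the header names stand 1 column to the left of their values, and columns were read accordingly.

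From the average levels, CPM per kilobase, percentiles, centred differences, exact Poisson intervals of levels and normal intervals of differences were computed with Python 3.11.15, numpy 2.4.6, pandas 2.3.3 and scipy 1.17.1. Reads were estimated from the spacing of the 1000 lowest CPM values. The estimate and the centring were tested on simulated data. The simulation drew a single pooled Poisson count per gene and added a known shift. It therefore does not cover averages over libraries of unequal depth or spread. The averages allow no test between conditions, and 0 columns of single samples were left without a match. Transcript lengths and GC content came from GENCODE release 29, a GRCh38 annotation, matched by NCBI gene ID, and covered 94.3% of shared genes. Protein sequences were not analysed here.

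Members and lists were chosen with earlier results of these data known. Named genes are all members, the 2 highest and 2 lowest genes of each list by the mean of both sets and any list gene with an absolute centred difference of at least 1. KAT2A and TXNIP were named after their values were seen, and USP25 for a result of the study. WDR5 is in the lists of MYC cofactors and of the MGA complex. Alternatives were other transcript lengths, other sets of ranked genes, other centrings, a threshold of 0.5 and a minimum mean of 3 log2 CPM. Centring within twentieths of GC content was added after the data had been seen.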

Additional observations from a re-analysis of the deposited data

How the results depend on the processing

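The length taken for each transcript moved the levels per kilobase most. With the median transcript length, the median level of the 9 members was 3.90 log2 CPM per kilobase in each set, MYC over MAX was 2.34 in the USP28-KO table and 3.25 in the reconstitution tables, and MLX over MLXIP was 1.10 and 0.906. With coding length, these medians were 4.27 and 4.65 log2 CPM per kilobase, MYC over MAX 1.51 and 2.09, MYC over the repressors 0.954 and 1.13, and the share of MNT 16.3% and 23.3%. Ranked among genes with at least 3 log2 CPM, which leaves out MXI1, the median percentile of the members was 41.9 instead of 34.5 in the USP28-KO table and 52.1 instead of 56.1 in the reconstitution tables. Among genes listed in all tables it was 50.7 in the reconstitution tables. At a threshold of 0.5, 2 of 9 members and 3682 of 10976 shared genes differed. Both members were higher in the reconstitution tables, where 14.0% of shared genes were higher and 19.6% lower. The median centred difference of the members lay between 0.11 without centring and 0.30 within GC twentieths. Of the alternative values, 43 stayed within the counting interval or within 1.5 times the count, and 29 moved further. Depth limits MXI1 and MXD1 most, and spread between libraries could not be given. No paired analysis was possible because the tables hold averages of several conditions and no values of single libraries.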

Other observations

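Of 9 other factors with a basic helix-loop-helix and leucine zipper, 8 were listed in all tables, with medians of 5.67 and 5.75 log2 CPM and a median centred difference of 0.29. SREBF2, the master regulator of cholesterol synthesis genes, was the only gene of these 8 past an absolute centred difference of 1, against 9.02% of all shared genes. The level of SREBF2 was 5.64 log2 CPM in the USP28-KO table and 7.42 log2 CPM in the reconstitution tables, a centred difference of 1.90 (3.73-fold). It remained at 1.71 when set against genes of like GC content. SREBF1 had 7.02 and 7.57 log2 CPM, and TFE3 7.39 and 7.83, the highest means of both sets in this list. TFAP4 (3.74 and 3.83) and TFEB (2.73 and 2.85), a regulator of lysosomal genes, had the lowest.

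Among the markers of cell types, the hepatocyte marker FGB, which encodes a fibrinogen chain, was listed in all tables. FGB had 6.003 log2 CPM in the USP28-KO table and 3.20 in the reconstitution tables, a centred difference of -2.68. VIM (11.7 and 11.7 log2 CPM) and CDH2 (7.72 and 8.06) had high levels, and ZEB1 was at 4.31 and 3.49. FN1 was lower in the reconstitution tables by 1.00 after centring, from 6.32 to 5.20 log2 CPM. KRT8 (11.2 and 12.02) and KRT18 (10.7 and 11.2) were the 2 of 4 epithelial markers listed. Of 4 markers of leukocytes and endothelium only CD74 was listed, at 2.55 and 1.14 log2 CPM.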
